A study of Arabidopsis thaliana with 22 samples.

Results

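FRS7 and FRS12 are 2 proteins of the FHY3/FAR1 family of *Arabidopsis thaliana*. The members described here are the genes whose transcript levels stood apart, in the same direction, in both lines that carry the *frs7 frs12* mutations. They were chosen by measured values of these libraries, as follows. A gene was a raised member when its lowest value in the 2 *frs7 frs12* and 2 *ahl22 frs7 frs12* libraries (the 4 mutant libraries) was at least 3 CPM (counts scaled to a library total of 1000000) and at least 1.5 times its highest value in 4 Col and 2 *ahl22* libraries (the 6 reference libraries). A lowered member met the same rule with the sides exchanged. *FRS12* and *FRS7* were left out. The rule selected 64 of 27416 genes, 18 raised and 46 lowered. Of the 15100 genes that reached 3 CPM throughout on 1 of the sides, these are 0.119% and 0.305%.

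FHY3/FAR1 proteins descend from transposases and bind DNA in the nucleus. FRS7 and FRS12 are known as repressors of genes for flowering, hypocotyl growth and glucosinolate synthesis, and AHL22 is an AT-hook protein that binds AT-rich DNA attached to the nuclear matrix. HDA15 is a histone deacetylase. Glucosinolates are sulfur compounds of cabbage relatives that are broken down to isothiocyanates or nitriles when tissue is damaged.

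RNA was taken from whole 5-day-old seedlings grown in days of 16 h light and nights of 8 h. Col is the wild-type accession Col-0, *ahl22* is the T-DNA insertion line *ahl22-1*, *frs7 frs12* is the double mutant *frs7-1 frs12-1* and *hda15* is the T-DNA line *hda15-1*. The triple mutant *ahl22 frs7 frs12* was made by crossing *ahl22* with *frs7 frs12* and was picked by PCR in the second generation after the cross, so both lines share ancestry, and an effect of FRS7 or FRS12 cannot be told apart from anything else inherited with these mutations. Each set had 2 libraries, and 12 distinct libraries were counted, with 12537767 to 21400580 counts each. Of these, 1 Col pair stood beside *ahl22*, *frs7 frs12* and *hda15* (the shared Col pair), and another, with different counts, stood in the *ahl22 frs7 frs12* table (the other Col pair). The labels list 1 Col pair for RNA-seq, which matches the shared pair by name, and where the other pair came from is not given in the sources used here. Its columns are headed Col and were taken as Col. Without it the rule selected 93 genes. All 64 members are among them by construction, because leaving out libraries can only loosen the rule.

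The mutated genes were looked at first. *FRS12* had 3.48 to 4.35 CPM in the 4 mutant libraries and 28.9 to 38.9 in the 6 reference libraries, and *FRS7* had 7.76 to 11.4 and 13.2 to 22.8, so that *FRS7* transcripts were still counted in the mutants. *AHL22* was at 0.924 and 1.19 CPM in *ahl22*, 0.942 and 1.60 in *ahl22 frs7 frs12* and 1.75 and 1.51 in *frs7 frs12*, and at 3.07 in each library of the other Col pair, against 17.98 and 16.1 in the shared Col pair. The libraries labelled *frs7 frs12*, a label that names no *ahl22* mutation, were thus about as low in *AHL22* as those labelled *ahl22 frs7 frs12*, with ranges that overlapped. The names of the sets are those of the labels. The shared Col pair stood apart in marker genes as well. The summed level of 6 root genes was 416 and 421 CPM there and 34.1 to 50.3 CPM in the other Col pair, *ahl22* and the 4 mutant libraries, with 215 and 229 in *hda15*. For 4 seed genes the shared Col pair had 58.5 and 51.1 CPM and every other library at most 7.41. For 4 evening genes the shared Col pair was the highest set, at 197 and 218 CPM, and *hda15* the lowest, at 54.1 and 63.4. For 3 morning genes the shared Col pair was the lowest, at 28.0 and 31.8 CPM, and *hda15* the highest, at 105 and 142. How far this enters comparisons of *hda15* with the shared Col pair was not tested. For all 5 marker lists (shoot, root, seed, morning and evening genes) the ranges of the 4 and the 6 overlapped. In whole seedlings, fewer cells of a type and less RNA per cell cannot be told apart.

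**Figure D1:**
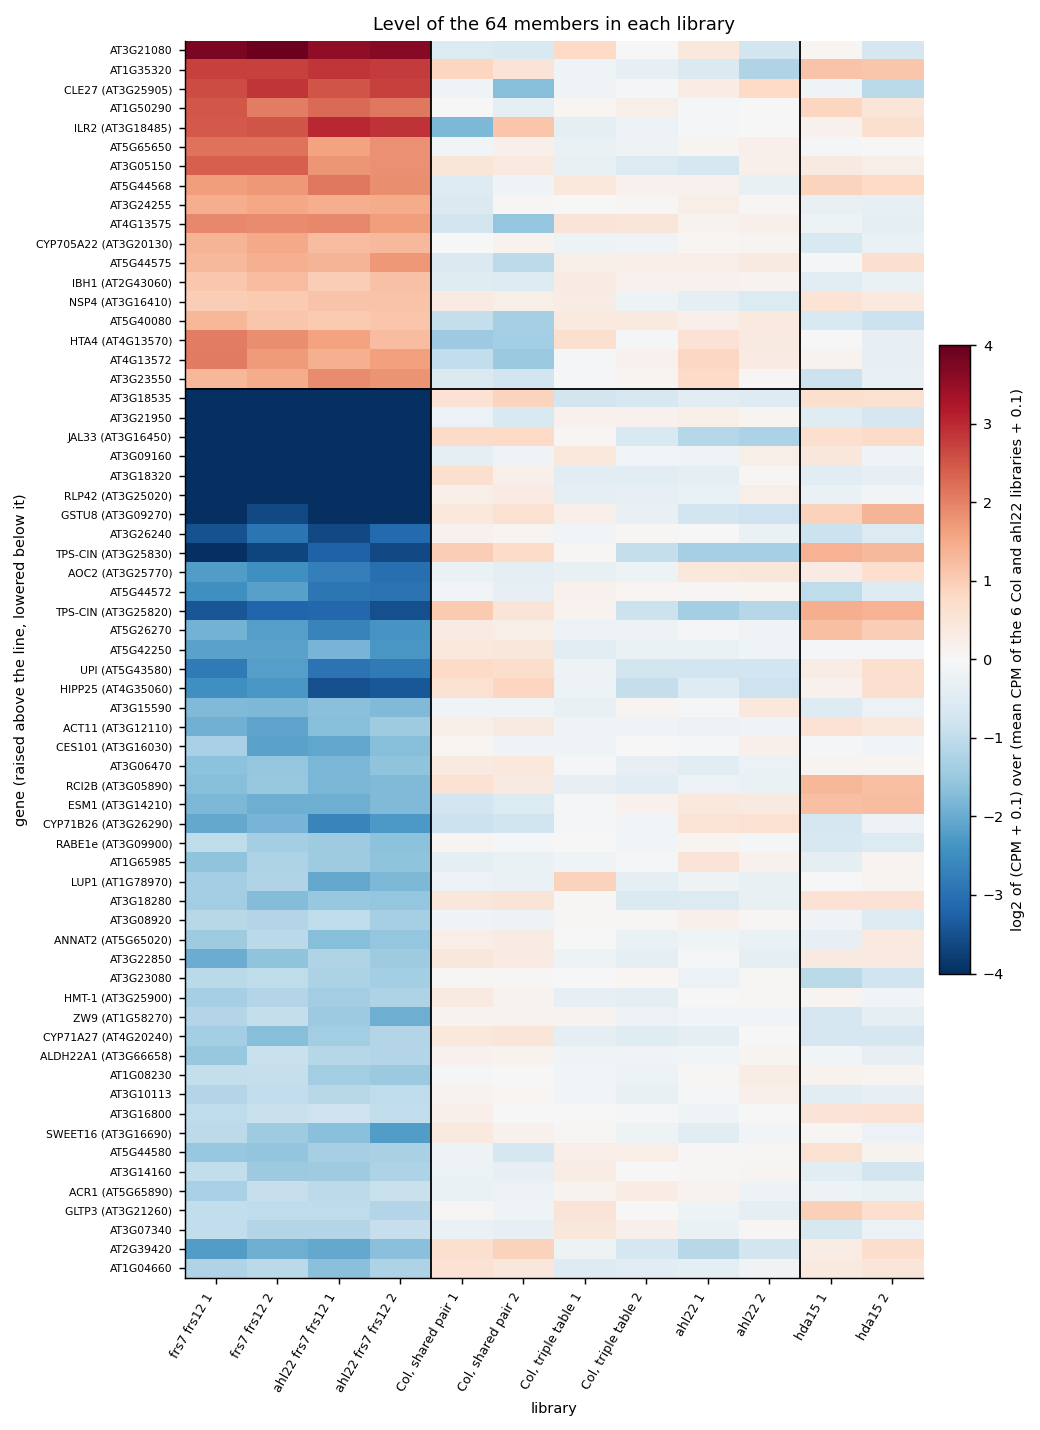
Each row is a member and each column a library. The color is the log2 ratio of the CPM, plus 0.1, to the mean of the 6 Col and *ahl22* libraries, plus 0.1, and colors stop at 4 and -4. The 18 raised members stand above the horizontal line and the 46 lowered ones below it, and the 2 *hda15* columns at the right, which the rule did not use, lie near the reference columns for most rows.

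The promoters of the members set furthest apart are shown because motifs were searched in this window. They are the 250 bases before the annotated start in TAIR10.1 (RefSeq), 5′ to 3′ on the strand of the gene, and capitals mark the motifs named after them. AT3G16450 (*JAL33*), AT3G21950 and AT3G18535 are lowered, and AT3G21080 is raised.
*JAL33*, chr3:5588042-5588291, plus strand: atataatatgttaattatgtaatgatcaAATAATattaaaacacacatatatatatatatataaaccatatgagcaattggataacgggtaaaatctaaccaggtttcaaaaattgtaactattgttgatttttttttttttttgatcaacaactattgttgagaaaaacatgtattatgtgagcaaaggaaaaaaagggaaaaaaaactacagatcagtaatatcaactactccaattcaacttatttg
AT3G21950, chr3:7733969-7734218, plus strand: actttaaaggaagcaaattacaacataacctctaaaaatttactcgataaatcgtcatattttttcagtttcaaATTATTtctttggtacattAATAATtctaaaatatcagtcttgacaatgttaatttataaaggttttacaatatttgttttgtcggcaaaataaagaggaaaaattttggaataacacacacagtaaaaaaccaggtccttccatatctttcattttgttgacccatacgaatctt
AT3G18535, chr3:6377626-6377875, minus strand: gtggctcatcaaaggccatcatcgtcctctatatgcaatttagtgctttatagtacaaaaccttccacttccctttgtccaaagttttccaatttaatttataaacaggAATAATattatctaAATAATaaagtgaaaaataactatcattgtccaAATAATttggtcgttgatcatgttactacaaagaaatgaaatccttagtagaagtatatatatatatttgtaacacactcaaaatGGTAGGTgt
AT3G21080, chr3:7390032-7390281, minus strand: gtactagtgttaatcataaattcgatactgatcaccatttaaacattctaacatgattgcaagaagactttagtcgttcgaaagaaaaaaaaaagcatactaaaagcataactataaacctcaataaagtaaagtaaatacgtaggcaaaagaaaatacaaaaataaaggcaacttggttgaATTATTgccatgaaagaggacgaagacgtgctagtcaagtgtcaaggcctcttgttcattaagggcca

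Searched on both strands, from 250 bases before to 50 after the start, were CACGCGC (bound by FHY3 and FAR1), AAAATATCT (the evening element), CACGTG (the G-box), AACCTAAC and ACCTACC (MYB elements), GGCCCA (site II) and AATAAT as an AT-rich word. None of these contains another. CACGCGC was in 0 of the 64 members' promoters (95% Wilson interval 0% to 5.66%), and in 1.81% of the 14998 promoters of genes past 3 CPM. The G-box was in 1 (1.56%, interval 0.276% to 8.33%), against 8.98% of those promoters. GGCCCA was in 5 (7.81%, interval 3.38% to 17.02%), against 20.9%. The evening element was in 3 (4.69%, interval 1.61% to 12.9%) against 3.07%. ACCTACC was in 1 (1.56%, interval 0.276% to 8.33%) against 1.38%, and AACCTAAC in 0 (interval 0% to 5.66%) against 0.953%. AATAAT was the most frequent, in 43 (67.2%, interval 55.0% to 77.4%) against 55.0%. The intervals treat promoters as independent, which those of neighbouring members may not be. The median AT content of the window was 70.3% over the members and 68.0% over genes past 3 CPM. Among the promoters printed, the capitals are AATAAT or its reverse complement ATTATT in all 4, and ACCTACC, as GGTAGGT, in AT3G18535 alone. These matches are descriptions and say nothing about binding.

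AT3G21080, annotated as an ABC transporter-like protein, was the raised member set furthest apart (chromosome 3, 7388258 to 7390031). It had 19.6 and 22.1 CPM in *frs7 frs12* and 16.96 and 17.9 in *ahl22 frs7 frs12*, against 0.903 and 0.861 in the shared Col pair, 2.42 and 1.34 in the other Col pair and 1.85 and 0.769 in *ahl22*. All 4 mutant libraries were far above the 6 others, by a ratio of 6.99 between the lowest and the highest of the sides, and *hda15* had 1.45 and 0.819 CPM. Fitted against the Col pair of its own table, the log2 fold change was 4.47 (standard error 0.253) in *frs7 frs12* and 3.29 (standard error 0.247) in *ahl22 frs7 frs12*. Values of this kind describe the choice of members and carry no test.

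*CLE27* (AT3G25905; chromosome 3, 9486168 to 9486924) encodes a small peptide of the CLAVATA3/ESR family of signals. It had 3.51 and 4.18 CPM in *frs7 frs12* and 3.26 and 3.83 in *ahl22 frs7 frs12*, against 0.417 and 0.0783 in the shared Col pair, 0.428 and 0.467 in the other Col pair and 0.616 and 0.909 in *ahl22*. *CLE27* was almost silent outside the 4 mutant libraries, and *hda15* had 0.421 and 0.175 CPM. *ILR2* (AT3G18485; chromosome 3, 6341918 to 6343178), a gene known from seedlings resistant to an auxin conjugate, had 3.12 and 3.31 CPM in *frs7 frs12* and 4.71 and 4.31 in *ahl22 frs7 frs12*, against 0.0694 and 1.17 in the shared Col pair, 0.357 and 0.401 in the other Col pair and 0.462 and 0.490 in *ahl22*. The mutant libraries of *ILR2* stayed under 5 CPM, and its shared Col libraries were unlike each other.

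*IBH1* (AT2G43060; chromosome 2, 17909007 to 17910210) is a bHLH protein known to restrain cell elongation. It had 33.1 and 36.7 CPM in *frs7 frs12* and 31.2 and 35.4 in *ahl22 frs7 frs12*, against 11.2 and 10.7 in the shared Col pair, 19.6 and 17.8 in the other Col pair and 17.8 and 17.2 in *ahl22*. The shared Col pair was the lowest set, and the 4 mutant libraries were the highest. It was the only member within 2 Mb of *AHL22*, where 534 genes passed 3 CPM. *NSP4* (AT3G16410), a nitrile specifier protein of glucosinolate breakdown, had 116 and 121 CPM in *frs7 frs12* and 128 and 128 in *ahl22 frs7 frs12*, against 72.9 and 69.2 in the shared Col pair, 72.4 and 51.3 in the other Col pair and 46.0 and 40.1 in *ahl22*. Its mutant libraries varied little, and *ahl22* was the lowest set.

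Several raised members have annotated roles in transport or metabolism. AT3G05150, of the major facilitator superfamily, had 42.8 and 42.5 CPM in *frs7 frs12* and 28.0 and 29.0 in *ahl22 frs7 frs12*, against 5.08 to 11.5 (median 7.97) in the 6 reference libraries. AT5G65650, annotated as a putative sugar transporter, had 40.6 and 40.6 CPM in *frs7 frs12* and 27.5 and 31.8 in *ahl22 frs7 frs12*, against 7.35 to 10.3 (median 8.87) in the 6 reference libraries. In both genes *frs7 frs12* lay above *ahl22 frs7 frs12*, and both lay above every reference library. *CYP705A22* (AT3G20130), a cytochrome P450, had 33.8 and 38.1 CPM in *frs7 frs12* and 31.4 and 32.3 in *ahl22 frs7 frs12*, against 11.5 to 14.6 (median 13.5) in the 6 reference libraries. AT3G23550, of the MATE efflux family, sat at the edge of the rule, with 7.62 and 8.53 CPM in *frs7 frs12* and 11.2 and 10.4 in *ahl22 frs7 frs12*, against 1.72 to 5.08 (median 2.93) in the 6 reference libraries and a ratio of 1.5001.

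The other raised members are mostly without a known role: the annotation gives 6 of the 18 as uncharacterized. AT1G35320 had 26.9 and 27.2 CPM in *frs7 frs12* and 29.7 and 28.2 in *ahl22 frs7 frs12*, against 1.68 to 7.29 (median 3.32) in the 6 reference libraries, and AT1G50290 had 41.2 and 30.5 CPM in *frs7 frs12* and 35.6 and 31.9 in *ahl22 frs7 frs12*, against 5.72 to 8.75 (median 7.35) in the 6 reference libraries. Both stood well clear of the references, and *hda15* lay between the sides, at 8.97 and 8.77 CPM and 13.3 and 10.3 CPM. AT3G24255, which is related to reverse transcriptases, had 17.8 and 19.2 CPM in *frs7 frs12* and 17.9 and 18.4 in *ahl22 frs7 frs12*, against 4.30 to 7.85 (median 6.74) in the 6 reference libraries. AT5G40080, a mitochondrial ribosomal protein L27, had 16.3 and 13.9 CPM in *frs7 frs12* and 13.4 and 14.0 in *ahl22 frs7 frs12*, against 2.51 to 8.46 (median 7.91) in the 6 reference libraries, with its shared Col pair lowest at 3.26 and 2.51 CPM.

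**Figure D2:**
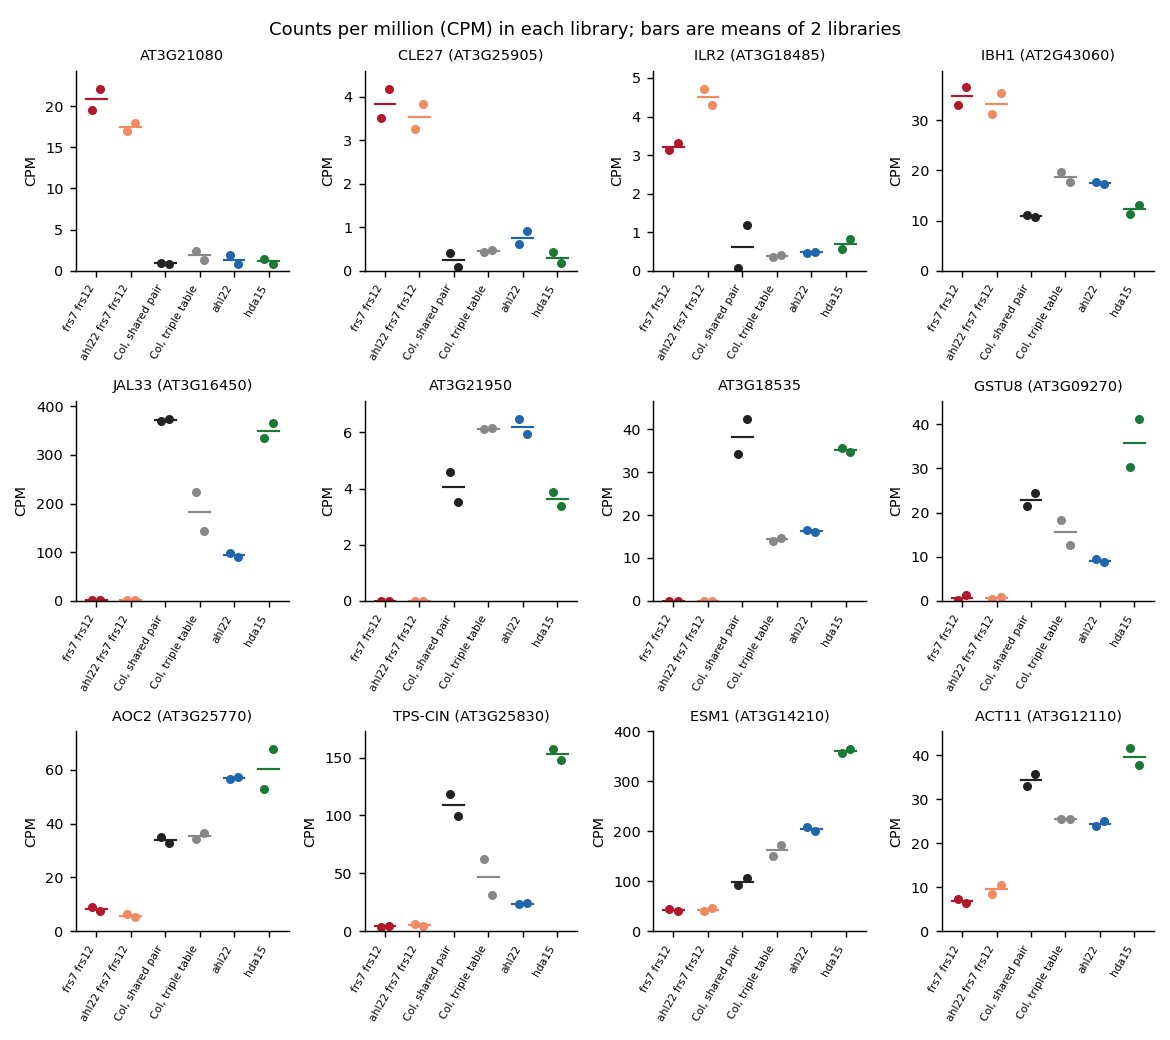
The panels plot CPM on a linear axis from 0 for 12 members in each of the 6 sets, with a point for each library and a bar at the mean of 2. The first 4 members are raised in both mutant lines and the other 8 lowered. AT3G21950 and AT3G18535 are at 0 in all 4 mutant libraries. *hda15* (green) lies on the reference side of the mutants, and above all 6 reference libraries in *GSTU8*, AT3G25830, *ESM1* and *ACT11*.

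Among the lowered members, 2 had no count at all in the 4 mutant libraries. AT3G18535, annotated as a tubulin-tyrosine ligase (chromosome 3, 6375269 to 6377625), had 0 and 0 CPM in *frs7 frs12* and 0 and 0 in *ahl22 frs7 frs12*, against 34.3 and 42.3 in the shared Col pair, 13.8 and 14.8 in the other Col pair and 16.6 and 16.0 in *ahl22*. AT3G21950, annotated among the S-adenosyl-L-methionine-dependent methyltransferases (chromosome 3, 7734219 to 7736493), had 0 and 0 CPM in *frs7 frs12* and 0 and 0 in *ahl22 frs7 frs12*, against 4.58 and 3.52 in the shared Col pair, 6.13 and 6.14 in the other Col pair and 6.47 and 5.94 in *ahl22*. A floor of 3 counts over the 4 libraries is 0.0529 CPM, so AT3G18535 was at least 434-fold lower than its mean of 23.0 ± 12.2 CPM (SD, n = 6), and AT3G21950 at least 103-fold lower than 5.47 ± 1.16 CPM (SD, n = 6). *hda15* had 35.5 and 34.7 CPM of the first and 3.88 and 3.39 of the second. AT3G18535 also separated the references: the shared Col pair and *hda15* had 34.3 CPM or more, and the other Col pair and *ahl22* 13.8 to 16.6.

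*JAL33* (AT3G16450; chromosome 3, 5588292 to 5590085), a lectin of the jacalin-related family that binds mannose, had the highest reference mean of the lowered members. It had 2.74 and 1.80 CPM in *frs7 frs12* and 2.32 and 2.71 in *ahl22 frs7 frs12*, against 371 and 373 in the shared Col pair, 225 and 143 in the other Col pair and 98.8 and 90.2 in *ahl22*. The 4 mutant libraries lay within a narrow band and the references were widely spread, from *ahl22* at the bottom to the shared Col pair at the top, with *hda15* at 335 and 365. The log2 fold change against the Col pair of its own table was -7.47 (standard error 0.137) in *frs7 frs12* and -6.12 (standard error 0.136) in *ahl22 frs7 frs12*.

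A further 2 members were left with at most 4 counts in any mutant library. AT3G09160, an RNA-binding protein, had 0 and 0.0580 CPM in *frs7 frs12* and 0.145 and 0.160 in *ahl22 frs7 frs12*, against 3.12 to 5.63 (median 3.82) in the 6 reference libraries. AT3G18320, an F-box protein, had 0 and 0.232 CPM in *frs7 frs12* and 0 and 0 in *ahl22 frs7 frs12*, against 4.54 to 9.79 (median 5.68) in the 6 reference libraries. Their reference levels were also low, at 3.12 to 9.79 CPM, so these ratios of 19.6 and 19.6 rest on few counts.

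*RLP42* (AT3G25020), a receptor-like protein that senses fungal polygalacturonases, had 0.457 and 0.5802 CPM in *frs7 frs12* and 0.507 and 0.0798 in *ahl22 frs7 frs12*, against 15.1 and 16.2 in the shared Col pair, 9.77 and 10.2 in the other Col pair and 10.7 and 15.1 in *ahl22*. *GSTU8* (AT3G09270), a glutathione S-transferase of the tau class, had 0.229 and 1.22 CPM in *frs7 frs12* and 0.362 and 0.877 in *ahl22 frs7 frs12*, against 21.4 and 24.4 in the shared Col pair, 18.3 and 12.8 in the other Col pair and 9.39 and 8.88 in *ahl22*. The nearest libraries of the sides were 16.8 times apart in *RLP42* and 7.29 times in *GSTU8*, and *GSTU8* had 30.2 and 41.1 CPM in *hda15*, above every other set. AT3G26240, a protein rich in cysteine and histidine, had 1.60 and 2.38 CPM in *frs7 frs12* and 1.45 and 2.07 in *ahl22 frs7 frs12*, against 15.5 to 21.5 (median 19.3) in the 6 reference libraries. *UPI* (AT5G43580), a protease inhibitor, had 2.36 and 3.71 CPM in *frs7 frs12* and 2.17 and 2.39 in *ahl22 frs7 frs12*, against 10.14 to 30.3 (median 12.7) in the 6 reference libraries.

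Hormone and terpene synthesis was represented by 3 genes close together on chromosome 3. *AOC2* (AT3G25770; chromosome 3, 9406669 to 9408071) is an allene oxide cyclase of jasmonate synthesis. It had 8.92 and 7.600 CPM in *frs7 frs12* and 6.23 and 5.10 in *ahl22 frs7 frs12*, against 35.0 and 32.9 in the shared Col pair, 34.4 and 36.6 in the other Col pair and 56.5 and 57.3 in *ahl22*. The libraries labelled *ahl22* were the highest of the references, and both mutant lines lay under 9 CPM. *TPS-CIN* is the terpene synthase that makes 1,8-cineole, and it is annotated as a pair of genes with identical transcripts over 1436 nt, AT3G25820 and AT3G25830. AT3G25830 had 3.58 and 4.64 CPM in *frs7 frs12* and 6.23 and 4.79 in *ahl22 frs7 frs12*, against 119 and 99.6 in the shared Col pair, 62.5 and 31.0 in the other Col pair and 23.6 and 23.9 in *ahl22*, and AT3G25820 had 5.64 and 6.67 CPM in *frs7 frs12* and 6.81 and 5.26 in *ahl22 frs7 frs12*, against 23.6 to 126 (median 50.3) in the 6 reference libraries. Reads from the shared 1436 nt cannot be told apart by sequence, so these are not 2 independent observations. The shared Col pair had the highest *TPS-CIN* of the references, as it had for the root genes, whose part in this was not tested.

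*ESM1* (AT3G14210; chromosome 3, 4729399 to 4731847) shifts glucosinolate breakdown away from nitriles. It had 44.8 and 39.8 CPM in *frs7 frs12* and 40.2 and 45.8 in *ahl22 frs7 frs12*, against 91.8 and 106 in the shared Col pair, 150.3 and 173 in the other Col pair and 208 and 201 in *ahl22*. *ESM1* and *NSP4* belong to the same breakdown step and were counted on opposite sides of the rule. *ESM1* was also the lowered member with the largest distance between *hda15*, at 357 and 365 CPM, and its Col pair.

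Among the other lowered members of known function, *ACT11* (AT3G12110), an actin, had 7.32 and 6.38 CPM in *frs7 frs12* and 8.48 and 10.5 in *ahl22 frs7 frs12*, against 23.9 to 35.8 (median 25.5) in the 6 reference libraries. *RCI2B* (AT3G05890), a small membrane protein induced by cold and salt, had 18.1 and 20.4 CPM in *frs7 frs12* and 16.5 and 17.3 in *ahl22 frs7 frs12*, against 42.9 to 88.4 (median 49.4) in the 6 reference libraries. *ALDH22A1* (AT3G66658), an aldehyde dehydrogenase, had 8.61 and 13.5 CPM in *frs7 frs12* and 11.1 and 11.01 in *ahl22 frs7 frs12*, against 21.8 to 27.7 (median 24.6) in the 6 reference libraries. These genes lie within 2 Mb of *FRS7*, on both sides of it. AT3G06470, of the family of fatty acid elongases, lies nearest to *FRS7* and had 10.14 and 10.8 CPM in *frs7 frs12* and 8.77 and 10.2 in *ahl22 frs7 frs12*, against 23.6 to 42.6 (median 28.8) in the 6 reference libraries. *HIPP25* (AT4G35060), a metal-binding protein of chromosome 4, had 1.75 and 1.91 CPM in *frs7 frs12* and 0.797 and 0.877 in *ahl22 frs7 frs12*, against 5.21 to 18.5 (median 7.89) in the 6 reference libraries. AT5G42250, an alcohol dehydrogenase, had 5.26 and 5.28 CPM in *frs7 frs12* and 6.38 and 4.63 in *ahl22 frs7 frs12*, against 17.5 to 32.2 (median 20.2) in the 6 reference libraries, and AT5G26270, which is uncharacterized, had 12.4 and 9.98 CPM in *frs7 frs12* and 7.32 and 9.01 in *ahl22 frs7 frs12*, against 40.2 to 58.9 (median 43.3) in the 6 reference libraries.

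Apart from AT5G44572, with a ratio of 3.64 and described below with its neighbours, the remaining lowered members had ratios of at most 2.59, the value of AT3G15590, a tetratricopeptide repeat protein with 6.85 to 7.61 CPM (median 7.05) in the 4 mutant libraries and 19.7 to 32.8 (median 22.7) in the 6 reference libraries. *CES101* (AT3G16030), a lectin receptor-like kinase, had 1.39 to 2.59 CPM (median 1.68) in the 4 mutant libraries and 5.78 to 7.48 (median 6.46) in the 6 reference libraries. *SWEET16* (AT3G16690), a sugar transporter of the vacuole membrane, had 3.27 to 7.54 CPM (median 5.36) in the 4 mutant libraries and 11.9 to 20.6 (median 15.4) in the 6 reference libraries. The 4 mutant libraries of these genes stayed under 8 CPM. *ANNAT2* (AT5G65020), an annexin that binds calcium and membranes, had 8.92 to 13.7 CPM (median 10.4) in the 4 mutant libraries and 23.99 to 36.3 (median 27.7) in the 6 reference libraries. AT1G65985, AT3G18280 (a lipid-transfer protein), AT3G22850, AT1G08230 (an amino acid transporter), AT3G16800 (a protein phosphatase 2C), AT3G14160 (a dioxygenase), *ACR1* (AT5G65890) and *GLTP3* (AT3G21260, a glycolipid transfer protein) had ratios of 1.56 to 1.81.

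The lowered members ranged in their mean over the references from 4.16 to 217 CPM, and the raised ones from 0.486 to 58.6 CPM. The median ratio between the sides was 1.83 over the 44 lowered members with a count in a mutant library and 2.26 over the 18 raised ones. A ratio of 2 or more was found in 20 of those 44 and in 11 of 18. Over 43 lowered members, the median log2 fold change against the Col pair of the same table was -1.75 in *frs7 frs12* and, again over 43, -1.49 in *ahl22 frs7 frs12*. For the 18 raised members these medians were 2.09 and 1.67. Both mutants were compared with different Col pairs, so these medians are set side by side only.

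At the threshold, the raised members with the smallest ratio were AT3G23550 (1.5001) and AT4G13572 (1.51), and the nearest genes outside were AT4G32460 (1.48), with 52.9 to 57.2 CPM in the mutants and 29.5 to 35.7 in the references, and AT5G66960 (1.48). On the lowered side AT1G04660 (1.501), a glycine-rich protein, and AT2G39420 (1.51), a hydrolase, were just inside, and *ABCG37* (AT3G53480; 1.46), with 4.71 to 6.33 CPM in the mutants and 9.24 to 129 in the references, and AT5G43730 (1.45) just outside. Genes on the 2 sides of the threshold thus had nearly the same separation.

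The position of the genes was not used in the rule. Of the 64 members, 39 (60.9%) lie on chromosome 3, 8 raised and 31 lowered, and all 39 lie in 1 stretch of 8.19 Mb from AT3G05150 to AT3G26290 (1440014 to 9634822). The stretch begins 0.449 Mb before the start of *FRS7* (1888834) and ends 7.75 Mb after it. The members in it are 2.91% of the 1340 genes there past 3 CPM. Outside it, 25 of 13760 genes were members (0.182%). The 278 genes of chromosome 3 before the stretch and the 1366 after it held 0. Because the outermost members set its ends, the stretch is a description. Neighbouring members in it were at most 0.836 Mb apart.

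The same stretch stood out in a wider count. Among all genes past 3 CPM, 987 of 15100 (6.54%) had no overlap between the 4 and the 6 libraries, with no minimum ratio. In the stretch these were 206 of 1340 (15.4%), 69 higher and 137 lower in the mutants, and outside it 781 of 13760 (5.68%). In windows of 1 Mb, the share was 8.78% to 17.6% from the start of chromosome 3 to 10 Mb, and 7.26% at most in the windows beyond. The first window, from 0 to 1 Mb, had 13.0% and 0 members. The members are part of this count.

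**Figure D3:**
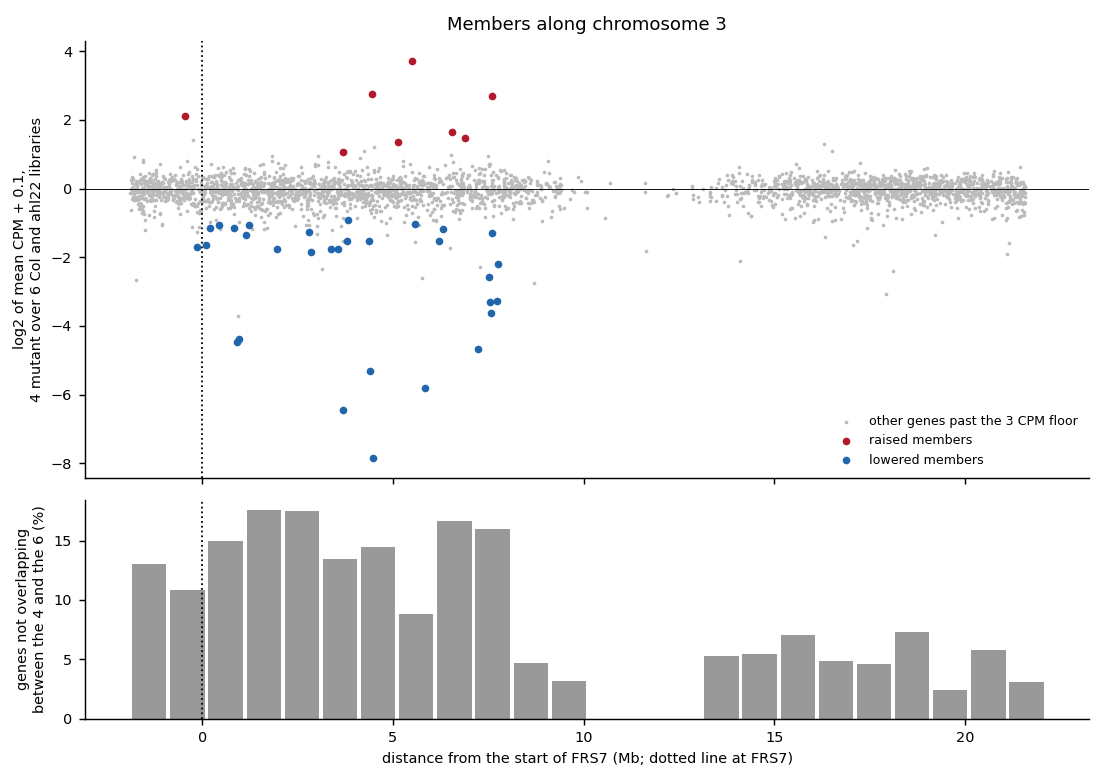
Above, each point is a gene of chromosome 3 past 3 CPM, at its distance from the start of *FRS7* (dotted line) in Mb and the log2 ratio of the mean CPM, plus 0.1, of the 4 mutant over the 6 reference libraries. All 39 members (red raised, blue lowered) lie from 0.449 Mb before to 7.75 Mb after *FRS7*; the bars below give the share of genes not overlapping between the sides in windows of 1 Mb, 8.78% to 17.6% in the first 10 windows.

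Within 2 Mb of *FRS7* lay 11 members among 741 genes past 3 CPM (1.48%). AT3G05150, at 0.449 Mb before it, was the only raised one of the 11. The lowered ones not yet described were AT3G07340, a bHLH protein, with 2.78 to 3.35 CPM (median 3.01) in the 4 mutant libraries and 5.09 to 8.77 (median 6.02) in the 6 reference libraries, AT3G08920, a rhodanese-like protein, with 20.0 to 24.9 CPM (median 22.7) in the 4 mutant libraries and 43.7 to 57.9 (median 51.6) in the 6 reference libraries, *RABE1e* (AT3G09900), a Rab GTPase, with 8.37 to 13.0 CPM (median 9.84) in the 4 mutant libraries and 24.04 to 28.3 (median 25.5) in the 6 reference libraries, and AT3G10113, a homeodomain-like protein, with 4.34 to 4.99 CPM (median 4.68) in the 4 mutant libraries and 8.01 to 11.4 (median 9.86) in the 6 reference libraries. In each of these 4 the sides differed by less than 2 times at their nearest libraries. No member lay within 2 Mb of *FRS12* on chromosome 5 (0 of 679 genes), where the nearest was AT5G26270. Counts per gene carry no sequence, so whether the genotypes differ in DNA sequence along chromosome 3 was not tested.

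The other chromosomes held 7 members on chromosome 1, 2 on chromosome 2, 5 on chromosome 4 and 11 on chromosome 5. Part of these stood side by side. With at most 3 genes between them, 13 members formed 5 groups of neighbours, and 2 of the groups held both raised and lowered members. On chromosome 4, the 3 genes *HTA4* (AT4G13570, a histone H2A), AT4G13572 and AT4G13575 (7884516 to 7893761) were all raised. *HTA4* had 15.1 and 13.2 CPM in *frs7 frs12* and 11.2 and 8.53 in *ahl22 frs7 frs12*, against 1.2 and 1.33 in the shared Col pair, 5.63 and 3.41 in the other Col pair and 5.39 and 4.62 in *ahl22*. AT4G13572 had 20.7 and 15.7 CPM in *frs7 frs12* and 13.0 and 15.2 in *ahl22 frs7 frs12*, against 1.64 to 8.62 (median 4.99) in the 6 reference libraries, and AT4G13575 had 43.5 and 42.1 CPM in *frs7 frs12* and 43.6 and 36.6 in *ahl22 frs7 frs12*, against 3.84 to 16.3 (median 12.7) in the 6 reference libraries. In all 3 the shared Col pair was the lowest set. Next to them, AT4G13580, a dirigent-like protein, had 9.64 to 13.3 CPM in the mutants and 8.41 to 19.9 in the references, and did not separate them.

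On chromosome 5, raised and lowered genes alternated along 17961019 to 17980550. AT5G44568 was raised, with 12.9 and 13.5 CPM in *frs7 frs12* and 17.5 and 14.6 in *ahl22 frs7 frs12*, against 2.78 to 5.42 (median 4.00) in the 6 reference libraries. AT5G44572 was lowered, with 2.29 and 2.84 CPM in *frs7 frs12* and 1.67 and 1.60 in *ahl22 frs7 frs12*, against 10.3 to 14.8 (median 13.7) in the 6 reference libraries. AT5G44575 was raised, with 13.9 and 15.3 CPM in *frs7 frs12* and 14.6 and 18.9 in *ahl22 frs7 frs12*, against 2.66 to 7.20 (median 6.63) in the 6 reference libraries, and AT5G44580 was lowered, with 43.5 and 42.2 CPM in *frs7 frs12* and 50.2 and 50.7 in *ahl22 frs7 frs12*, against 79.6 to 152 (median 130.2) in the 6 reference libraries. All 4 are uncharacterized. The genes between them were counted at 3.78 CPM or less. Before them AT5G44565, which missed the minimum in part of the libraries, had 1.44 to 3.36 CPM in the mutants and 0 to 0.214 in the references.

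**Figure D4:**
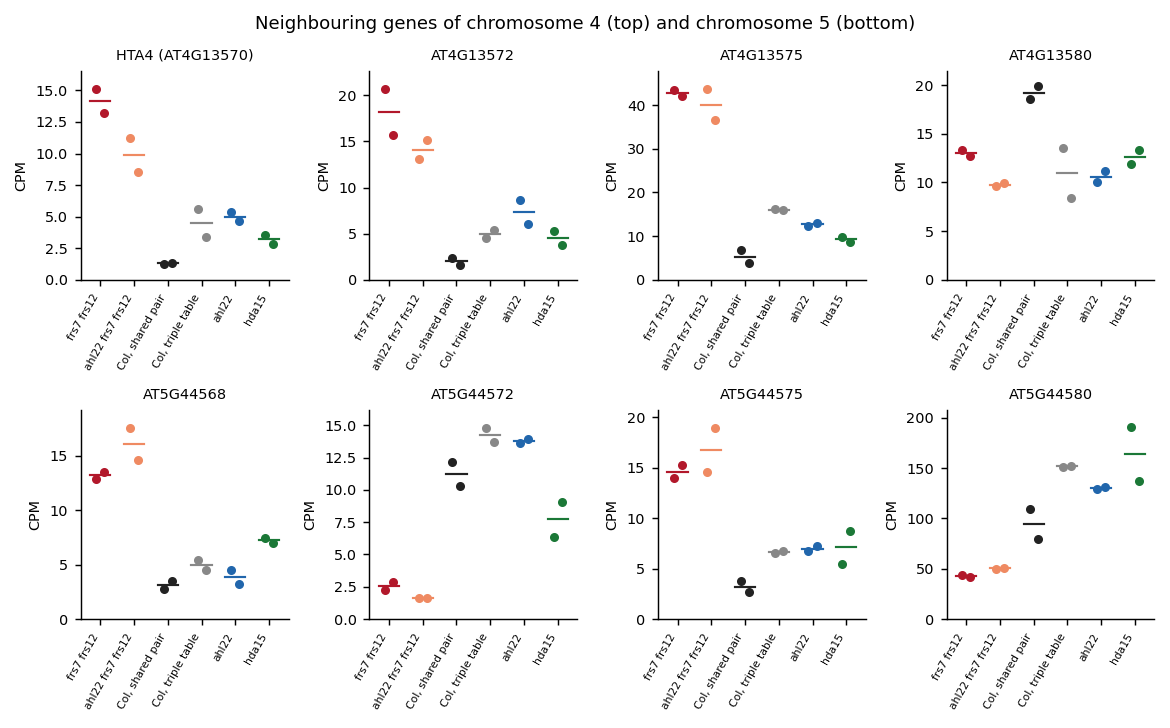
CPM, on a linear axis from 0, of 3 neighbouring members and the next gene AT4G13580 on chromosome 4 (top) and of 4 neighbouring members on chromosome 5 (bottom), with a point for each library and a bar at the mean of 2. The 3 members of chromosome 4 are higher in both mutant lines (red and orange), and on chromosome 5 AT5G44568 and AT5G44575 are higher and AT5G44572 and AT5G44580 lower.

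On chromosome 3, *HMT-1* (AT3G25900), a homocysteine S-methyltransferase, was lowered beside the raised *CLE27*, with 3.51 and 3.95 CPM in *frs7 frs12* and 3.41 and 3.75 in *ahl22 frs7 frs12*, against 6.81 to 11.6 (median 9.30) in the 6 reference libraries. *CYP71B26* (AT3G26290), a cytochrome P450 3 genes away from AT3G26240, had 12.3 and 13.9 CPM in *frs7 frs12* and 8.12 and 10.3 in *ahl22 frs7 frs12*, against 27.8 to 78.4 (median 48.1) in the 6 reference libraries. Its neighbour *CYP71B4*, which is no member, had 19.1 to 35.2 CPM in the mutants and 20.4 to 31.1 in the references. The *TPS-CIN* pair was the fifth group.

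Near-identical copies and overlapping genes limit some values. In the reference transcripts, 14 members shared at least 150 nt at 90% identity or more with another gene, and 16 overlapped another annotated gene. Reads of AT3G10113 could belong to *EPR1* (AT1G18330; 99.8% identity over 615 nt), which had 21.0 to 33.9 CPM in the mutants and 34.4 to 68.8 in the references. AT3G24255 is like AT3G23910 (97.3% over 1206 nt), which was also higher in the mutants, at 18.2 to 22.4 against 9.08 to 17.8 CPM. *RLP42* is like *RLP40* (94.4% over 2894 nt), which had 0.522 CPM at most in the mutants and 1.41 to 4.55 in the references. In these 3 pairs the copy stood on the same side as the member. AT3G26250, a copy of the lowered AT3G26240 (92.4% over 1460 nt), went the other way, with 0.0725 to 0.533 CPM in the mutants and no count in the 6 references. *NSP4* is like *NSP1* (AT3G16400; 95.02% over 1446 nt), which had 412 to 471 CPM in the mutants and 385 to 813 in the references, so its sides overlapped. AT5G40080 is like AT5G39800, whose sides also overlapped, at 8.35 to 11.5 and 4.58 to 12.2 CPM.

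The *hda15* libraries were not used in the rule and give values of the members in a further genotype. Because the rule set the 4 mutant libraries beyond all 6 references, a further library would tend to fall on the reference side by this choice alone. Both *hda15* libraries lay on the reference side of the 4 mutant libraries for all 18 raised members and for 45 of the 46 lowered ones. The exception was AT3G23080, named for this reason after its values were seen, with 17.8 and 21.5 CPM in *hda15* against 14.6 to 18.2 in the mutants. For 11 raised and 17 lowered members both libraries fell within the range of the 6 references, and for 4 and 7 between the sides. A further 10 lowered members had both *hda15* libraries above all 6 references, on the side away from the mutants, among them *GSTU8*, *ESM1*, *RCI2B* (146 and 134 CPM) and the *TPS-CIN* pair (148 to 167 CPM). The raised *CYP705A22* (8.60 and 10.997 CPM) and the lowered AT3G23080 were below all 6, and 13 members had their *hda15* libraries on both sides of an edge. The same places are not given over all genes, so these counts describe the members. Whether they are particular to the members was not tested.

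In edgeR's quasi-likelihood test of *hda15* against the shared Col pair, 6 of 63 members tested (9.52%) were called, at adjusted p-values below 0.05 and log2 fold changes beyond 1 in either direction, and 7.70% of all 19242 genes tested did. With no minimum fold 24 members passed, beside 25.7% of all genes. The shared Col pair was part of the rule, so the test is not independent of it. *ESM1* was 1.92 (standard error 0.134, adjusted p = 1.41e-07) in this test, the largest change of a member, and its direction is opposite to that in the 4 mutant libraries. By edgeR, *HTA4* was 1.38 (standard error 0.359, adjusted p = 0.0104), AT5G44568 1.27 (standard error 0.254, adjusted p = 0.00191), AT4G13572 1.24 (standard error 0.326, adjusted p = 0.0109) and AT5G44575 1.18 (standard error 0.279, adjusted p = 0.00596), all raised members of the neighbour groups. The sixth in edgeR's fit was *CYP71A27* (AT4G20240), a cytochrome P450, at -1.10 (standard error 0.229, adjusted p = 0.00252). The median log2 fold change was 0.45 over 17 raised members tested, -0.07 over 46 lowered ones and 0.00437 over all genes.

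These calls depended on the Col pair. With the other Col pair as the control, 13 of 62 members tested passed (21.0%), beside 2200 of 19271 genes (11.4%). All 13 were higher in *hda15*, as were 1559 of the 2200, and only *ESM1* was among the 6 named. With *ahl22* as the control 16 of 62 passed (25.8%), beside 3079 of 19300 genes (16.0%). All 16 were higher, as were 2051 of the 3079, and 2 were among the 6. Both of these controls were also part of the rule, so these shares are not independent of it. *HTA4* then had a log2 fold change of -0.34 against the other Col pair and -0.38 against *ahl22*, with edgeR adjusted p-values of 0.469 and 0.287. *ESM1* was called in every fit of this comparison that was run.

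The difference between the 2 Col pairs was tested in the same way, since both enter the rule. This test is not independent of the rule either. Of 62 members tested, 13 (21.0%) passed, against 16.5% of 19214 genes, and with no minimum fold 34, against 48.9%. *HTA4* was 1.72 (standard error 0.380, adjusted p = 0.00164) in the other Col pair over the shared one by edgeR's test, AT4G13575 1.52 (standard error 0.225, adjusted p = 5.85e-05), AT5G40080 1.45 (standard error 0.252, adjusted p = 2.41e-04) and AT4G13572 1.23 (standard error 0.319, adjusted p = 0.00512). By edgeR, AT3G18535 was -1.49 (standard error 0.142, adjusted p = 7.48e-07) and *HIPP25* -1.36 (standard error 0.220, adjusted p = 1.28e-04). The other 7 called members, all lower in the other Col pair, had log2 fold changes of -1.31 to -1.05. For these 13 genes the reference side of the rule is itself made of unequal sets, and the fold against a single pair depends on which pair is taken.

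The libraries labelled *ahl22 frs7 frs12* were compared with those labelled *frs7 frs12*, 2 sets that the rule put on the same side. By their labels they differ in *ahl22*, but the *AHL22* transcript was low in both, at 0.942 and 1.60 against 1.75 and 1.51 CPM, so its level does not tell the sets apart. In edgeR's test 0 of 59 members tested passed the adjusted p and fold threshold, against 0.903% of 18484 genes. DESeq2 called 0 members as well. At so small a share few or no calls would be met among 59 genes of any kind, so these counts say nothing particular about the members. By edgeR, AT3G05150 was -0.52 (standard error 0.108, adjusted p = 0.00117), *ZW9* (AT1G58270) -0.55 (standard error 0.137, adjusted p = 0.00724), AT5G65650 -0.39 (standard error 0.111, adjusted p = 0.0195) and AT5G44580 0.30 (standard error 0.0960, adjusted p = 0.0450). These 4 passed the adjusted p alone, with changes under the fold minimum, where 9.19% of all genes passed the adjusted p. The fitted changes of the members ran from -1.07, in *HIPP25*, to 0.55. The median was -0.02 over the raised members, -0.06 over the lowered ones and -0.00949 over all genes tested. A p that misses the threshold does not show that the 2 lines are alike. The rule used all 4 libraries and asked each to lie beyond the references, which favors genes alike in the 2 lines. This test is thus not independent of the rule, and members with the fewest mutant counts were not tested.

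**Figure D5:**
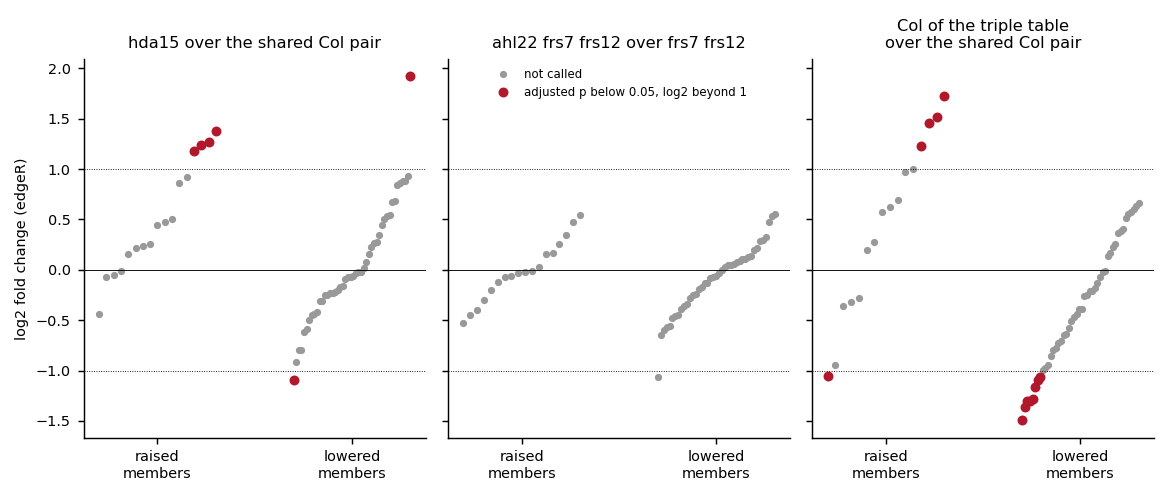
Each point is a member at its log2 fold change in edgeR's fit, ordered by value within the raised and the lowered members, for 3 comparisons. Dotted lines mark 1 and -1, and red points had an adjusted p below 0.05 beyond them: 6 members in *hda15* over the shared Col pair, 0 in *ahl22 frs7 frs12* over *frs7 frs12*, and 13 between the Col pairs.

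Genes for which FRS7 and FRS12 are known were looked up in lists chosen from general knowledge. None of the 4 lists held a member. Among all 15100 genes past 3 CPM, 14113 overlapped between the sides and 6.54% did not, and the counts below are to be read against that share. Of the 14 genes of the FHY3/FAR1 family, 12 other than *FRS7* and *FRS12* passed 3 CPM and all 12 overlapped between the 4 and the 6 libraries. Of 23 aliphatic glucosinolate genes past 3 CPM, 22 overlapped, and the flavin monooxygenase gene *FMO GS-OX4* was lower, at 4.55 to 7.18 CPM against 7.28 to 20.1. In the same list 15 of 26 genes tested were higher and 0 lower in *hda15* against the shared Col pair, beside 779 of 19242 genes higher, and 13 were higher and 1 lower in the other Col pair against the shared one, beside 1271 of 19214 genes higher. The shared pair was thus low in this list. The libraries of the other Col pair were also unlike each other in part of it. *CYP79F1* had 48.2 and 20.4 CPM there and *IMD1* 124 and 63.4, while *BCAT3* was nearly level, at 133 and 126. All 12 genes of the jasmonate co-repressor list past 3 CPM (NINJA, TPL, MYC and JAZ genes) overlapped. In the flowering and growth list of 19 genes past 3 CPM, *PIF3*, a bHLH protein of light signaling, was higher in the mutants, at 40.9 to 54.2 against 25.3 to 35.2 CPM, and *CDF3*, a DOF protein, lower, at 27.2 to 30.6 against 32.4 to 50.2 CPM. *FKF1*, a light-sensing F-box protein of flowering, was the only gene of the lists called between *ahl22 frs7 frs12* and *frs7 frs12*. Its log2 fold change was -1.58 in edgeR's test (standard error 0.419, adjusted p = 0.0123). The Col pairs differed more in *FKF1*, by -3.38 in the other pair over the shared one. The shared pair had 11.6 and 10.5 CPM of it and the other pair 1.57 and 0.668. Whether its call goes with the genotype was not tested. The median log2 ratio of the mutant to the reference means was -0.13 for the family, 0.04 for glucosinolates, -0.06 for the jasmonate list and -0.02 for flowering and growth, beside -0.04 over all genes past 3 CPM.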

How the data were processed

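RNA-seq of whole *Arabidopsis* seedlings was counted in 12 distinct libraries. Per the methods, the authors used HISAT2 (genome build TAIR10) for mapping and Subread for counting, and the 4 deposited tables hold raw counts per gene. All 16 columns were used, 4 of which repeat a Col pair. Columns not used numbered 0. Whether counting used strand is not given in the sources used here. The paper and the labels differ on temperature, medium, cold treatment and library kit.

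CPM was the count over the column total times 1000000. Names and positions came from TAIR10.1 (26719 of 27416 genes and all 64 members matched), whose coordinates are given. Tests used edgeR 4.0.16 in R 4.3.3 (quasi-likelihood, TMM, filterByExpr, Benjamini-Hochberg), on the sets compared, with calls at adjusted p-values below 0.05 and log2 fold changes beyond 1. Fits were tested on simulated data with known changes. There were 2 libraries per set, which the paper calls biological replicates without saying how they were grown apart, so p-values measure the spread between libraries, which may be technical. Floors and intervals cover counting error only.

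The members, lists and tests were chosen with earlier results of these data known. Named genes are the 12 raised and 12 lowered members set furthest apart, those at the threshold, past a test (up to 5 each), near a mutated gene or beside each other, members on a list, and the mutated genes. Others named were chosen after their values were seen. Near copies came from blastn 2.17.0 and figures from matplotlib 3.10.9. Alternatives were other folds, minimums and scalings of the rule, DESeq2 1.42.0, RLE and upper-quartile normalization, other filters, a fit of all libraries, the replicate number as a block, other controls and windows, and leaving out replicates. Leaving out each library of the rule or each reference pair was added after seeing the data.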

Additional observations from a re-analysis of the deposited data

Results flagged for a closer look

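In 5 of the 64 members, 1 of the 4 Col libraries lay far from the other 3, by a gap that is a large part of the range of the 4. Chance flags about 1 in 20 such groups. *LUP1* (AT1G78970), a lupeol synthase of triterpene synthesis, had 18.6 and 17.9 CPM in the shared Col pair and 40.8 and 16.7 in the other, a gap of 0.921 of the range. The other members of this kind were each set by a low library. *ZW9* (AT1G58270), a TRAF-like protein, had 74.1, 74.9, 74.2 and 56.8 CPM, with a gap of 0.957. *NSP4* had 72.9, 69.2, 72.4 and 51.3 CPM, with a gap of 0.830, and the low library of both genes is the same, in the other Col pair. AT3G24255 had 4.30, 6.73, 6.56 and 6.75 CPM, with a gap of 0.925. *CLE27* had 0.417, 0.0783, 0.428 and 0.467 CPM, with a gap of 0.869, and its low library held a single count.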

How the results depend on the processing

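The 64 members became 124 at the looser fold tried and 33 at a fold of 2, 101 without the shared Col pair and 114 without *ahl22*, and 128 and 193 without replicate 1 or 2 of every group. With a single library left out they numbered 66 to 80. The other 5 settings of the rule gave 44 to 93. The 8.19 Mb stretch of chromosome 3 held 30.6% to 69.7% of the members under these settings, and 60.9% as reported.

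Of the *hda15* calls, the other Col pair as control gave 13, *ahl22* as control 16, and no minimum fold 24. Over all genes, 1482 were called as reported, 2200 and 3079 with these controls and 4937 with no minimum fold. *HTA4* changed sign with the other Col pair (-0.34) and with *ahl22* (-0.38) as control, and AT4G13572 with *ahl22* (-0.43). Between *ahl22 frs7 frs12* and *frs7 frs12* no minimum fold gave 4 and every other setting 0. Between the Col pairs it gave 34, beside 48.9% of all genes. The share of members with GGCCCA was 3.12% in the 250 bases before the start, and 26 members lay within 5 Mb of a mutated gene.

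With the replicate number as a block, the members called were 6, 0 and 13, as without it. The numbers are not shown to pair the libraries: deviations of same-numbered libraries correlated across genes at 0.170, 0.0239 and 0.0434 in the 3 comparisons. With 2 libraries a set, the spread is poorly known and members near 3 CPM are the least precise.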

Other observations

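Some genes beside members separated the 4 mutant libraries from the 6 reference libraries without meeting the rule, and are named after their values were seen. AT3G25805, which is uncharacterized and lies before *TPS-CIN*, had 28.1 to 35.4 CPM in the mutants and 13.4 to 24.2 in the references, a difference without overlap that stayed under the ratio of 1.5. On chromosome 5, AT5G44578, between members, had 0.0725 to 0.533 CPM in the mutants and 0.940 to 3.08 in the references, without overlap but below the minimum of 3 CPM.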
